A study of Mus with 5 samples.

Results

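Tcf7, Lef1, Bach2, Bcl6, Id3, Foxo1 and Satb1 encode transcription regulators linked to the naive, memory and stem-like states of T cells. Their binding by the retinoic acid receptor RARα and by the AP-1 family factor BATF was read from 4 lists of peaks made by chromatin immunoprecipitation sequencing (ChIP-seq) of mouse CD8 T cells. A peak was counted for a gene when the authors' annotation of that peak named the gene, alone or among others. By this rule 109 of the 27480 peaks in the 4 lists belonged to the 7 genes, namely 8 of 1172 RARα peaks without retinoic acid (RA), 2 of 597 with RA, 63 of 15812 BATF peaks without RA and 36 of 9899 with RA.

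TCF1, the product of Tcf7, and LEF1 are related proteins that bind DNA through an HMG box and keep naive and memory T cells able to renew. BACH2 and BCL6 are repressors, ID3 blocks the DNA binding of E proteins, FOXO1 switches on genes of quiescence and lymph node homing, and SATB1 organises chromatin loops. BATF binds AP-1 sites, often together with IRF4, and is known for its part in effector T cell differentiation, while RARα is a nuclear receptor whose activity is changed by binding RA.

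All groups were wild-type CD8 T cells from spleen. Antibodies against CD3 and CD28 together with IL-2 activated them over 24 h, and a rest of 24 h in IL-2 at 100 U/ml followed. For the last 1 h the cells received no RA (control) or RA at 50 nM. The labels name interleukins of other numbers for some of the samples, whereas the methods and the design text name IL-2. Chromatin was precipitated with antibodies against RARα or BATF or with normal rabbit IgG, and the labels do not say whether the IgG cells received RA. Each list had been called on 2 pooled ChIP files against the same IgG file, and the sources used here do not say whether the 2 files are separate cultures or 1 culture sequenced again.

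The RARα pools held 22655611 (control) and 22475060 (RA) fragments, the BATF pools 23110180 and 16424269, and the IgG library 11410673. The BATF RA pool was therefore 71.1% as deep as the BATF control pool. As a check of the cell type, BATF control peaks were counted at marker loci (a peak naming 2 genes counts for both). All 5 T cell loci (Cd3e, Cd3g, Cd2, Cd8a and Cd8b1) had such peaks, 50 in all, with 16 at Cd8a, 20 at Cd8b1 and 1 at Cd3e. All 3 B cell loci had them as well, 5 in all, and 1 of 3 myeloid loci had 1. The T cell loci thus differed from the B cell loci in the number of peaks, not in having any. Peaks are binding sites and do not measure expression. With 1 list per condition there is no spread between replicates, no test of RA was possible, and every difference below is a description of these lists. Intervals are 95% intervals that cover counting error only, and they are not adjusted for the number of sites read.

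BATF peaks were dense at most of the 7 genes, and RARα peaks were few. In the BATF control list Tcf7 was named by 15 peaks, Satb1 by 13, Lef1 by 11, Bach2 by 9, Id3 and Foxo1 by 7 each, and Bcl6 by 1. Of the 11912 gene names in that list, 36 (0.302%) were named by at least as many peaks as Tcf7, 54 (0.453%) by as many as Satb1 and 100 (0.839%) by as many as Lef1. At least 7 peaks, reached by 6 of the 7 genes, were found for 3.66% of all names. Each of these counts depends on how much DNA the annotation assigns to a gene, and the part of gene size in it was not tested.

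RARα named 5 of the 7 genes in the control list, with 4 peaks at Lef1 and 1 each at Bach2, Id3, Foxo1 and Bcl6. Among all gene names in the BATF control list, 12.2% were also named in the RARα control list. For the 436 names with at least 7 BATF control peaks this share was 51.6%. That is the closer comparison for these genes except Bcl6, which had 1 BATF control peak. Of the genes it covers, RARα named Lef1, Bach2, Id3 and Foxo1. Tcf7 and Satb1, which had the most BATF peaks of the 7, had no RARα control peak. With RA only Lef1 and Satb1 were named by RARα, with 1 peak each. Bach2, Id3, Foxo1 and Bcl6 were thus absent from the RARα RA list, as were 83.6% of all names in the RARα control list.

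**Figure D1:**
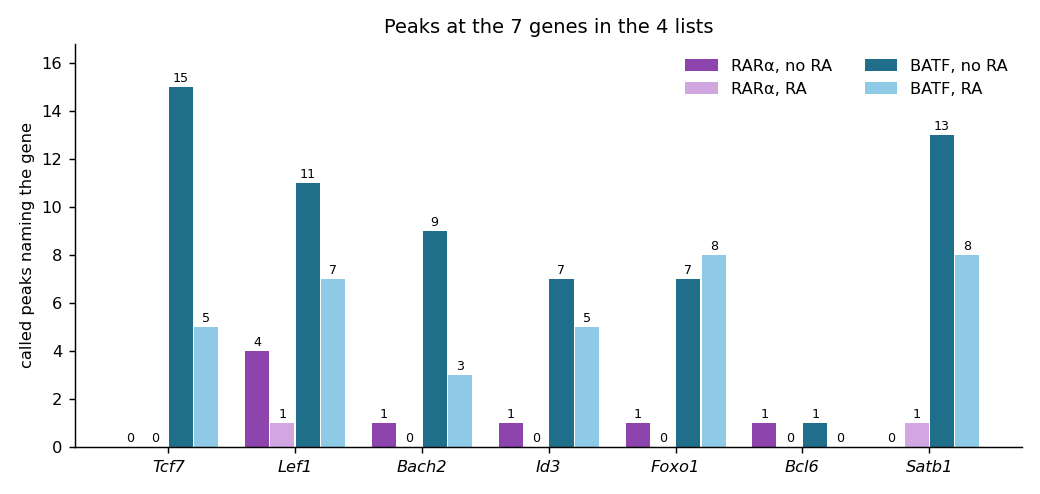
Number of called peaks that name each gene (y axis) in the RARα lists (purple) and the BATF lists (blue), with the darker bar for cells without RA and the lighter bar for cells with RA. BATF bars are tallest at Tcf7 (15 peaks) without RA, and only Foxo1 has more BATF peaks with RA (8) than without (7).

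With RA, the number of BATF peaks was lower at 6 of the 7 genes. It went from 15 to 5 at Tcf7, from 9 to 3 at Bach2, from 13 to 8 at Satb1, from 11 to 7 at Lef1, from 7 to 5 at Id3 and from 1 to 0 at Bcl6, while Foxo1 went from 7 to 8. Over the 7 genes the RA list had 57.1% as many peaks as the control list, against 62.6% for the whole list. A lower count with RA was also found for 55.6% of all names in the BATF control list, and for 97.7% of the 436 names with at least 7 control peaks, whose median RA count was 50% of the control count. The lower counts at these genes were thus close to those of names with many control peaks. Those names were picked by their control count alone, which by itself favours a lower RA count. The closeness is therefore only a description. The shallower BATF RA pool moves with these counts, and its part in them was not tested.

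Most of the control BATF sites still had a BATF peak close by with RA. Of the 63 control peaks, 47 had an RA peak within 5 kb (74.6%, interval 62.7 to 83.7), against 69.9% of the whole control list. When the peaks had to overlap, the order was the other way round, with 29 of 63 (46.0%, 34.3 to 58.2) against 54.4%. All 36 RA peaks had a control peak within 5 kb, against 96.3% of the whole RA list, and 35 of them (97.2%) overlapped one, against 93.6%. The RA peak that overlapped none was a peak 47373 bp above Foxo1 (chr3:52397482-52397730, fold enrichment 4.42 from 13 fragments), which lay next to a control peak without touching it.

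Retention by gene ranged from all to none. Within 5 kb it was 7 of 7 at Foxo1, 6 of 7 at Id3, 11 of 13 at Satb1, 11 of 15 at Tcf7, 8 of 11 at Lef1, 4 of 9 at Bach2 and 0 of 1 at Bcl6. With so few peaks the intervals were wide, from 64.6 to 100% at Foxo1 and from 18.9 to 73.3% at Bach2, and differences between genes were not tested. By overlap it was 5 of 7 at Foxo1 and at Id3, 6 of 13 at Satb1, 5 of 15 at Tcf7, 5 of 11 at Lef1 and 3 of 9 at Bach2. The 11 Tcf7 peaks kept within 5 kb were paired with only 5 RA peaks. The Bach2 count leaves out 7 control and 6 RA peaks inside the gene that the annotation did not name. The 16 control peaks without an RA peak within 5 kb had fold enrichments of 3.39 to 8.88, and 11 of them lay inside their gene. Among the 14 control peaks with a fold enrichment of at least 7, 13 had an RA peak within 5 kb (92.9%), as did 92.7% of such peaks in the whole list. The remaining peak was in Tcf7.

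**Figure D2:**
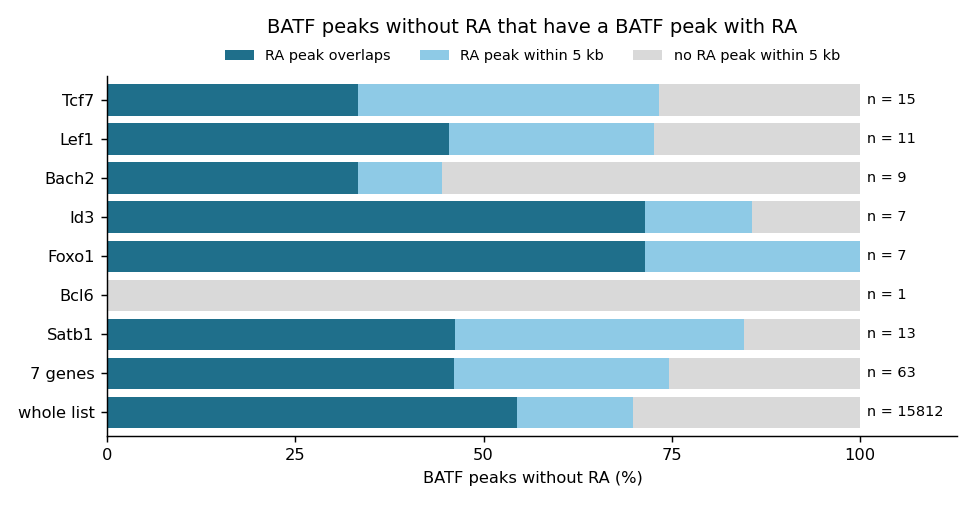
Share of BATF control peaks (x axis, percent) that overlap a BATF RA peak (dark), have one within 5 kb without overlap (light) or have none within 5 kb (grey), for each gene, for the 7 genes together and for the whole list. Foxo1 has no grey part, Bach2 has 5 of 9 peaks in grey, and the 7 genes together exceed the whole list at 5 kb but not for overlap.

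The BATF peaks of the 7 genes lay mostly away from promoters. Of the 63 control peaks, 17 were classed as promoter (27.0%, 17.6 to 39.0), 2 as exon, 15 as intron and 29 as intergenic (46.0%, 34.3 to 58.2). In the whole control list 58.7% of peaks were promoter and 18.1% intergenic. With RA, 13 of 36 peaks were promoter (36.1%) and 15 intergenic (41.7%), against 64.6% and 16.2%. Retention within 5 kb was 16 of 17 for the promoter peaks and 19 of 29 for the intergenic ones, against 74.3% and 62.3% in the whole list. By summits within 500 bp it was 9 of 17 and 14 of 29, against 5412 of 9289 and 1352 of 2861. The promoter peaks of these genes were thus kept more often than those of the whole list only by the wider distance. The class comes from the authors' annotation, which called several peaks inside Bach2 intergenic, and by the gene table used here 39 of the 63 peaks lay inside their gene. In 17 of the 63 the annotation named other genes as well, so that those peaks are not assigned to these genes alone.

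At sites called in both BATF lists the median fold enrichment was similar with and without RA. Only such sites have a ratio, so a site that missed the cutoff in the shallower RA pool is left out. Of the 63 control peaks, 28 had an RA summit within 500 bp (44.4%, against 52.4% of the whole list), on 27 RA peaks. The median ratio of fold enrichment, RA over control, was 0.977 (quartiles 0.779 and 1.07), with 16 of the 28 below 1. Over all 8286 such sites the median ratio was 0.829, and 75.8% were below 1. The same was done with the fragments at each summit divided by the depth of their pool, called the depth-adjusted ratio below. Its median was 0.915, with 17 of the 28 below 1, against 0.844 and 76.4% over all sites. The whole list holds a larger share of promoter peaks than these genes do, and its ratios differed by class. The median ratio of fold enrichment was 0.899 at the 9 promoter sites, against 0.799 at promoter sites of the whole list. It was 0.998 against 0.896 at the 14 intergenic sites and 0.848 against 0.881 at the 4 intron sites. For single sites the counting error was wide, and the interval of the depth-adjusted ratio included 1 at 25 of the 28 sites, lay below 1 at 2 (in Lef1 and Bach2) and above 1 at 1 (in Foxo1). Pairing by nearest midpoint within 5 kb gave 47 pairs with a median ratio of 1.03, and 22 of them (46.8%) were lower with RA, against 66.9% of all pairs. Those 47 pairs used only 33 RA peaks, so some joined neighbouring sites.

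**Figure D3:**
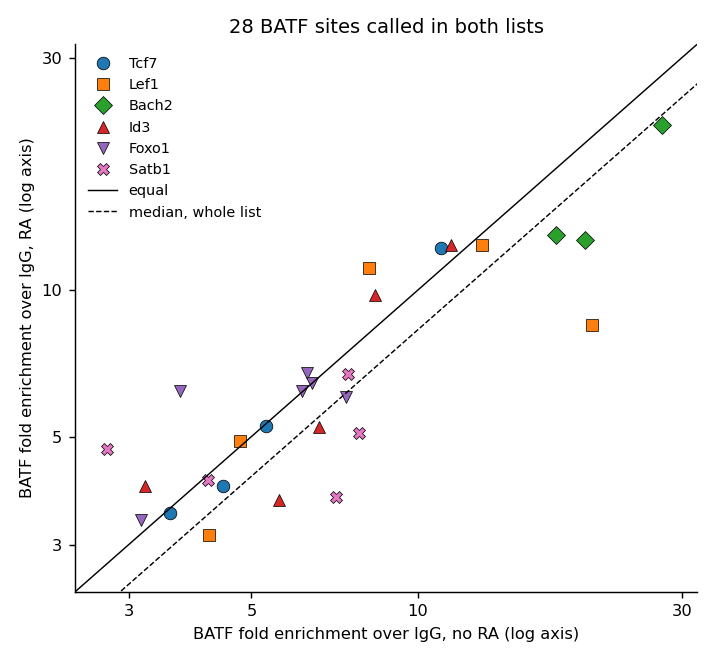
BATF fold enrichment over IgG without RA (x axis) and with RA (y axis), both on log axes, at the 28 sites of the 7 genes whose summits in the 2 lists lie within 500 bp. Points lie around the solid line of equal values, most of them above the dashed line at the whole-list median ratio of 0.829. Below the solid line lie 16 of the 28, among them the Lef1 promoter and all 3 Bach2 sites shown.

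Tcf7 (chr11:52246527-52283383, mm10) encodes TCF1, the factor most widely used to mark stem-like CD8 T cells. No RARα peak named it. The nearest RARα control peak was 34901 bp from the gene (fold enrichment 2.41) and was assigned to Olfr1371, and the nearest RARα RA peak was 1879612 bp away. Apart from 1 peak 65703 bp below the gene, its 15 BATF control peaks formed a row from intron 3 across the promoter into the flank above the gene, where above and below stand for higher and lower coordinates. The strongest of them was not in the gene. It lay 57358 bp above it (chr11:52340741-52341605), where the annotation also named Vdac1, Skp1a and 9530068E07Rik, with a fold enrichment of 11.0 from 77 fragments. With RA this site was called again with a fold of 12.2 from 55 fragments, a depth-adjusted ratio of 1.01 (0.698 to 1.44).

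Of the BATF peaks of Tcf7, 6 overlapped the gene in the control and 1 with RA. The strongest intronic peak (chr11:52268150-52268896, intron 3) had a fold enrichment of 8.88 from 36 fragments. Its neighbours in the same intron had folds of 6.57 (28 fragments) and 3.67 (25 fragments). None of these 3 had a BATF RA peak closer than 10605 bp. The other 2 intronic peaks, with folds of 3.39 and 3.27, had an RA peak 3839 and 2134 bp away. At the promoter a control peak 4238 bp long (chr11:52278766-52283003) had a fold of 6.09, and with RA a peak 804 bp long within it (chr11:52279501-52280304) had a fold of 4.94 from 19 fragments. A second promoter peak, 203 bp above the gene, had a fold of 6.23 and no overlapping RA peak. The other 3 sites found in both lists lay 10716 to 30695 bp above the gene, with folds of 3.56 to 5.31 in the control and 3.48 to 5.27 with RA. Between and beside them 3 control peaks with folds of 3.95 to 4.61 overlapped no RA peak, and the nearest was 1856 to 3931 bp away. The peak below the gene (fold 4.08) had its nearest RA peak 51573 bp away. Within 10 kb of the gene there were therefore 7 BATF control peaks and 1 with RA.

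Lef1 (chr3:131110297-131224357) was the gene with both the most RARα peaks and the only RARα site found with and without RA. In the RARα control list, 4 or more peaks were found for 1.19% of gene names. Beside its strong site in intron 3, which had a fold enrichment of 10.7 from 63 fragments and ranked 13 of the 1172 control peaks, the other 3 peaks in that intron were weak. They had folds of 3.02 (12 fragments), 3.86 (14 fragments) and 2.58 (9 fragments). The first of these (chr3:131117188-131117473) lay within a BATF peak, the second (chr3:131139192-131139468) overlapped one, and the third (chr3:131162762-131163066) was 3937 bp from one. A q-value of 0.05 or smaller, a threshold adjusted for the number of positions scanned, was reached by the strong site and by the second.

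At the strong Lef1 site the RARα summits of the control and RA lists were 4 bp apart, and the BATF summits lay 25 bp (control) and 21 bp (RA) from them. RARα had 63 fragments in the control and 35 with RA (chr3:131157177-131157789, fold 6.08, rank 16 of 597), at nearly the same local IgG level of 4.96 and 4.92. The depth-adjusted ratio was 0.560 (0.359 to 0.860). BATF had 63 fragments in the control (chr3:131157255-131158825, fold 13.1) and 47 with RA (chr3:131157363-131158107, fold 12.4), a ratio of 1.05 (0.704 to 1.56). At this site the RARα value was thus lower with RA beyond counting error, whereas the BATF values differed by less than counting error. Of all RARα sites found in both lists by summits within 500 bp, 71.6% had a lower fold with RA.

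**Figure D4:**
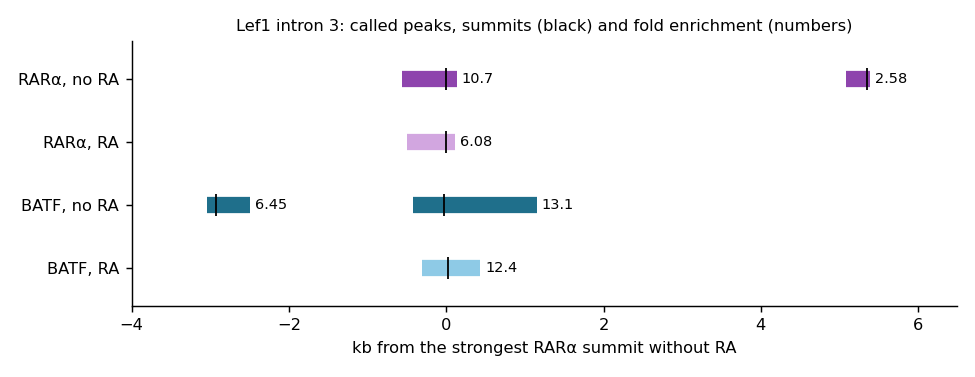
Called peaks around the strong RARα site in intron 3 of Lef1, drawn to scale in kb from the RARα control summit (x axis), with 1 row for each list, black ticks at the summits and the fold enrichment printed beside each peak. The summits of all 4 lists fall together, the RARα fold is 10.7 without RA and 6.08 with RA, and the BATF fold is 13.1 and 12.4, while the flanking BATF peak (6.45) and RARα peak (2.58) have no counterpart with RA at their own position.

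At the Lef1 promoter, without RA, a single BATF peak of 7020 bp (chr3:131110997-131118016) had a fold enrichment of 20.6 from 105 fragments at its summit, higher than all but 1.47% of the list. With RA 3 separate peaks lay within it, with folds of 8.48 (38 fragments), 7.15 (24 fragments) and 6.002 (22 fragments). The first of them (chr3:131111682-131113598) had its summit 53 bp from the control summit. Its depth-adjusted ratio was 0.509 (0.342 to 0.745). Among the 28 sites found in both BATF lists, the interval lay below 1 at 2, and this was 1 of them. A distal BATF peak, 95664 bp below the gene (chr3:131014260-131014633), had a fold of 8.15 in the control and 11.1 with RA, with a ratio of 1.495 (0.895 to 2.50). Of the 11 control peaks, 3 had no RA peak within 5 kb, with folds of 4.67, 5.43 and 6.42. One of them (chr3:131139207-131139939) was the BATF partner of the weak RARα peak with a fold of 3.86.

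Bach2 (chr4:32238413-32586109) encodes a repressor that binds AP-1 type sites and restrains effector differentiation. It carried 3 of the 4 strongest BATF control sites among the 63 that the annotation gave to the 7 genes. The first (chr4:32587892-32588741) lay 1783 bp above the gene, was also assigned to Mdn1, Gja10, Bach2os and Casp8ap2, and had the highest fold enrichment of the 63 peaks, 27.7 from 195 fragments. With RA its fold was 21.8 from 115 fragments, a depth-adjusted ratio of 0.830 (0.653 to 1.05). The second (chr4:32319504-32320418) went from a fold of 20.0 (80 fragments) to 12.7 (38 fragments), a ratio of 0.668 (0.442 to 0.995). The third, in intron 1 (chr4:32424337-32424807), went from 17.8 (107 fragments) to 13.0 (68 fragments), a ratio of 0.894 (0.650 to 1.22). The fold was lower with RA at all 3, as at 75.8% of all sites found in both BATF lists. The interval lay below 1 only at the second of them.

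The other 6 Bach2 control peaks were weaker, and 1 of them (chr4:32423732-32424008, fold 3.76 from 18 fragments) had an RA peak 521 bp away. All 5 control peaks without an RA peak within 5 kb, with folds of 3.39 to 5.19 (18 to 41 fragments), lay between chr4:32335561 and chr4:32364279. One of these (chr4:32363690-32364279, fold 3.39) overlapped the single RARα peak assigned to Bach2 (chr4:32363615-32363890, fold 3.22 from 15 fragments), with the summits 69 bp apart. Neither the RARα nor the BATF peak had a counterpart with RA, the nearest BATF RA peak being 43249 bp from the RARα peak. The annotation left out part of this long gene. Within 10 kb of Bach2, as the gene table gives it, there were 16 BATF control peaks, 9 BATF RA peaks and 2 RARα control peaks, against 9, 3 and 1 by name, so the counts by name are too low for it.

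Bcl6 (chr16:23965050-23988866) encodes a repressor that supports memory and follicular fates against Blimp-1. It had the fewest peaks of the 7. A BATF control peak covered the 5′ UTR in exon 1 (chr16:23988339-23988939) with a fold enrichment of 4.83 from 52 fragments, where the local IgG level of 9.83 was more than that of most peaks of the list (median 4.56). A weak RARα control peak of 11 fragments (chr16:23991090-23991429, fold 3.02) lay 2224 bp above the gene in a repeat annotated as simple GA repeat, 2151 bp from the BATF peak. Neither had a counterpart with RA, and the nearest BATF RA peak was 162138 bp from the control peak, in a group of peaks that the annotation assigned to no gene and that were not counted here. Of all names in the BATF control list, 23.8% had no BATF RA peak.

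Id3 (chr4:136143822-136145392) encodes an inhibitor of E proteins that is kept in long-lived memory precursors. Its strongest BATF sites were distal and had somewhat higher values with RA. One at 47676 bp below the gene (chr4:136095505-136096146) had fold enrichments of 11.5 (control) and 12.4 (RA). Another at 54430 bp (chr4:136088635-136089392) had 8.36 from 126 fragments and 9.75 from 107 fragments, a depth-adjusted ratio of 1.19 (0.915 to 1.56). Both were also assigned to Tceb3, Rpl11 and E2f2, and the second had the highest local IgG level of the 63 peaks (14.0). The promoter peak (chr4:136143585-136144209) had a fold of 5.60 in the control and 3.70 with RA, with a ratio of 0.682 (0.351 to 1.28). A second peak classed as promoter (chr4:136144773-136145201) lay over the 3′ UTR in the detailed annotation. It went the other way, from 3.21 to 3.95 (ratio 1.13, 0.593 to 2.11). A peak 1920 bp above the gene went from 6.62 to 5.22 (ratio 0.810, 0.435 to 1.47). None of these differences exceeded counting error. The single RARα control peak (chr4:136082087-136082343, fold 2.44 from 16 fragments) was 61479 bp below the gene, was assigned to 5 genes, and had a p-value that missed 1e-05. It overlapped a BATF peak (fold 4.28) that had no RA counterpart within 5 kb.

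Foxo1 (chr3:52268337-52350109) encodes the forkhead factor that drives Ccr7, Il7r and Klf2 in resting T cells. It was the only one of the 7 genes with more BATF peaks with RA than without, as were 4.63% of all names in the BATF control list. This came in part from splitting. In the control a peak of 2521 bp over the start of intron 1 (chr3:52269154-52271674) had a fold enrichment of 6.17 from 49 fragments, and with RA 2 peaks lay within it, with folds of 9.75 (31 fragments) and 6.21 (32 fragments). At 3 distal sites the values were close in both lists. They went from 7.41 to 6.02 at 69438 bp below the gene, from 6.31 to 6.75 at 46194 bp above it and from 6.42 to 6.45 at 93703 bp above it. Of its 6 sites found in both lists, 1 had a lower fold with RA, against 75.8% of all sites, and 3 had a lower depth-adjusted value, against 76.4%. One of the 6, the site whose interval lay above 1 (ratio 2.37, 1.30 to 4.43), joined a weak control peak of 19 fragments to an RA summit 381 bp away that also paired with the larger peak beside it.

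The RARα peak of Foxo1 (chr3:52270423-52270686, fold 3.78 from 15 fragments) lay in intron 1, within the same BATF control peak, and passed a q-value of 0.05. It was not called with RA, while the RA BATF peak with a fold of 9.75 (chr3:52269421-52271153) covered the same position. The summit of that RA BATF peak was 53 bp from the RARα control summit, and the summit of the longer BATF control peak was 932 bp from it.

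Satb1 (chr17:51736187-51833290) encodes a chromatin organiser needed for naive T cell identity. Its 13 BATF control peaks had fold enrichments between 2.74 and 7.84, none as strong as the best sites of Tcf7, Lef1, Bach2 or Id3, and 11 of them lay in the upper part of the gene. The strongest, over its promoter (chr17:51830011-51834076), went from 7.84 (45 fragments) to 5.08 (21 fragments) with RA, a depth-adjusted ratio of 0.657 (0.372 to 1.13). A promoter peak at chr17:51826099-51827111 went from 7.11 to 3.76, and one at chr17:51813542-51815061 from 7.48 to 6.73. Both peaks above the gene, at 43116 and 45741 bp, had no RA peak within 5 kb. Of its 5 sites found in both lists, 4 had a lower fold with RA, against 75.8% of all sites.

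Satb1 was also the only gene of the 7 with an RARα peak found only with RA. This peak (chr17:51780387-51780690, intron 7) had a fold enrichment of 3.03 from 11 fragments and a -log10 p of 4.21, past the RARα cutoff of 0.001 but not 1e-05. No BATF RA peak lay within 25078 bp of it, and no RARα control peak within 382434 bp. In the whole RARα RA list 19.6% of peaks had an RARα control peak within 5 kb and 16.4% had a BATF RA peak.

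**Figure D5:**
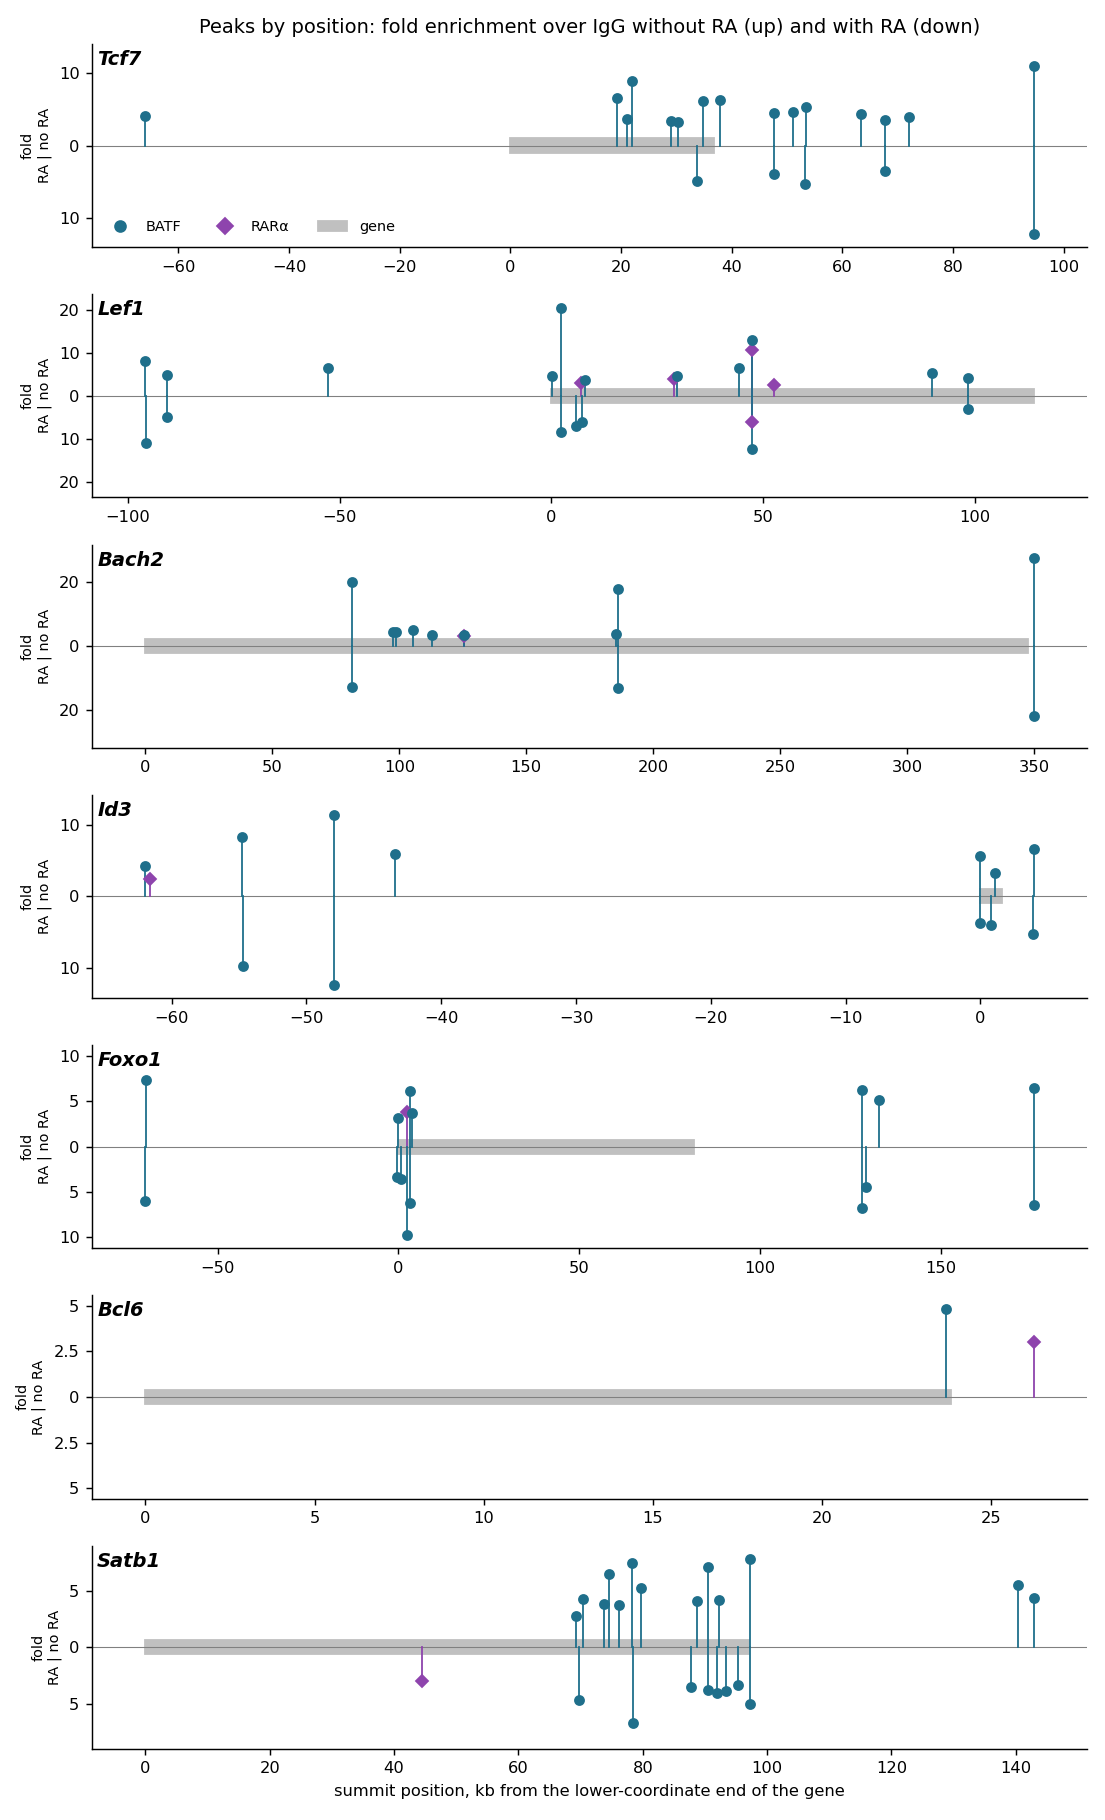
Fold enrichment over IgG (y axis) of each peak at its summit position (x axis, kb from the lower-coordinate end of the gene, whose extent is the grey bar), with values without RA drawn upwards and values with RA drawn downwards, for BATF (blue circles) and RARα (purple diamonds). Tcf7 has peaks without RA in the gene that lack a partner below the line. The strongest distal sites of Tcf7, Lef1, Id3 and Foxo1 have one, and some weaker distal sites do not.

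Over the 7 genes, every RARα control peak lay near BATF. All 8 had a BATF control peak within 5 kb, against 61.9% of the whole RARα control list, and 6 of them overlapped one, against 53.4%. With 8 peaks the intervals were wide (67.6 to 100 and 40.9 to 92.9), and they count the 4 peaks in 1 intron of Lef1 as separate. All but the Bcl6 peak were at genes with at least 7 BATF control peaks. The whole-list shares are not limited to such genes, and no share for them is given here. In the other direction 11 of the 63 BATF control peaks (17.5%, 10.04 to 28.6) had an RARα control peak within 5 kb, against 7.16%. Of the 8 RARα peaks, 2 had an RARα RA peak within 5 kb, against 10.2%, and both were paired with the same RA peak at the strong Lef1 site, which 1 of them overlapped. By summits within 500 bp it was 1 of 8, against 8.7%. Their classes were 2 promoter, 4 intron and 2 intergenic, against 19.5% promoter and 43.8% intergenic in the whole list. Leaving out that site, the RARα control peaks at these genes had folds between 2.44 and 3.86 from 9 to 16 fragments, close to the whole-list medians of 3.09 and 13 fragments.

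The same counts were taken for genes around the 7. Among genes listed for the naive and memory programme (Ccr7, Il7r, S1pr1, Klf2, Slamf6, Cxcr5, Eomes, Myb, Zeb1 and Foxp1), all 10 had BATF peaks in both lists, 98 in the control and 57 with RA. Of the 98, 71 (72.4%) had an RA peak within 5 kb. RARα named 5 of the 10 in the control, with 12 peaks, and 0 with RA. Foxp1, a forkhead factor that maintains naive T cell quiescence, had the most, with 26 BATF and 4 RARα peaks in the control and 16 and 0 with RA, followed by the lymph node homing receptor Ccr7 with 15 and 11 BATF peaks and the follicle homing receptor Cxcr5 with 13 and 6. The 4 effector-side counterparts (Prdm1, encoding Blimp-1, Id2, Tbx21 and Zeb2) were named by 22 BATF control peaks, of which 15 (68.2%) had an RA peak within 5 kb, and by 3 RARα peaks in the control and 0 with RA. The share was 74.6% at the 7 genes and 69.9% in the whole list, and the difference between these groups was not tested.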

How the data were processed

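ChIP-seq peak lists of RARα and BATF in CD8 T cells with and without RA were used as deposited. The authors aligned paired-end reads with Bowtie2 and ran the peak caller MACS 2.2.7.1 on mm10 with IgG as control (effective genome size 1870000000), at p-value cutoffs of 0.001 (RARα) and 1e-05 (BATF), pooling 2 ChIP files per list. The deposited pileup is a signal that counts fragments at the summit, which the authors' caller had scaled by 0.9875 in the BATF control list. The deposited fold enrichment is a ratio of pileup plus 1 to local IgG plus 1, from which the IgG level was recovered. The deposited -log10 p-value and -log10 q-value were used only as thresholds. The headers call the q-values not calculated, although values are present.

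All 7 genes were named, and the genes and lists were chosen with earlier results of these data known. For each surrounding list, values were given for at most 4 genes, those with the most peaks or with none, and 1 gene of each of 2 lists is not reported here. Positions came from a RefSeq gene table for GRCm38.p6. Peaks were counted as shared within 5 kb, after the authors' methods, and pairs used nearest midpoints. Same-site pairs (summits within 500 bp) were chosen after seeing the data. Intervals are Wilson 95% for shares and exact conditional for depth-adjusted ratios of fragments. The overlap and pairing steps were tested on simulated data, where 400 of 400 planted partners were found. Software was Python 3.11.15 with scipy 1.17.1, pandas 2.3.3, numpy 2.4.6 and matplotlib 3.10.9. Sequences and motifs of the peaks were not analysed here.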

Additional observations from a re-analysis of the deposited data

How the results depend on the processing

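No paired analysis was possible because the authors pooled the files of each condition into a single list. Of 36 alternative values, 23 stayed close to those reported (counts within 1.5 times, shares inside their interval, ratios on the same side of 1), 11 moved and 2 crossed 1. RARα control peaks at the 7 genes numbered 4 instead of 8 at a p-value of 1e-05, 3 at a q-value of 0.05 and 1 at a fold enrichment of at least 5. In the whole RARα control list 519 of 1172 peaks passed that p-value and 409 that q-value. RARα RA peaks numbered 1 instead of 2 under each of these thresholds. In the whole RARα RA list 143 of 597 peaks passed that p-value and 97 that q-value. A fold of at least 5 left 32 of 63 BATF control and 20 of 36 BATF RA peaks. The median folds of the whole lists were 5.40 and 5.29. The share of BATF control peaks kept with RA, 74.6% within 5 kb, was 55.6% within 1000 bp, 46.0% for overlap and 44.4% for summits within 500 bp. The last of these, and the nearest-summit pairing, were chosen after seeing the data. The median ratio of BATF fold enrichment was 1.03 at pairs of nearest midpoints, 0.947 with only overlapping pairs and 0.977 with the nearest summit within 500 bp. The direction of the median is therefore not settled at these genes. Counting peaks within 10 kb of the gene body gave 49 BATF control and 30 BATF RA peaks. The BATF RA pool was 71.1% and the RARα RA pool 99.2% as deep as its control, and neither had replicates. A peak absent with RA was one that was not called there, which does not show that it was lost.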

Other observations

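For the genes other than Bcl6 and Bach2, no peaks without a gene name are given here. Peaks near Bcl6 and in Bach2 that the annotation gave to no gene held some of the strongest sites around them. They fall outside the rule for the genes and were chosen after their values were seen. At 162033 bp above Bcl6, a BATF control peak (chr16:24150899-24152456) had a fold enrichment of 24.3 from 122 fragments, rank 148 of 15812, and with RA 17.0 from 65 fragments (depth-adjusted ratio 0.750, 0.546 to 1.02). An RARα control peak (chr16:24153916-24154979) 165050 bp above the gene had a fold of 7.38 from 43 fragments, rank 40 of 1172. It was called again with RA (chr16:24154020-24154300, fold 5.40 from 31 fragments, ratio 0.727, 0.443 to 1.18) with summits 39 bp apart. There the BATF peak on the same position was the weaker of the 2, with folds of 3.46 and 4.38. A second RARα control peak (chr16:24151083-24152079, fold 3.72) lay within the strong BATF peak. In all, 3 BATF control, 3 BATF RA, 2 RARα control and 1 RARα RA peaks lay within 200 kb of Bcl6 without a gene name, against 1, 0, 1 and 0 by name. No value here ties these sites to Bcl6 beyond distance.

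In the lower part of Bach2, 7 BATF control and 6 BATF RA peaks and 1 RARα control peak had no gene name. The strongest (chr4:32248187-32251514) had a BATF fold of 18.1 from 136 fragments in the control and 22.7 from 120 with RA (chr4:32250439-32251483), a ratio of 1.24 (0.963 to 1.60). This differs in direction from the 3 strong Bach2 sites found by name, whose folds were lower with RA. Another (chr4:32287730-32289206) had folds of 14.1 and 12.0. At the lower-coordinate end of the gene a BATF peak had folds of 6.91 (chr4:32238371-32240534) and 6.45 with RA. The RARα peak (chr4:32291587-32291835, fold 3.40 from 26 fragments) had its summit 17 bp from a BATF control summit with a fold of 5.93.

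Of 10 relatives of the 7 genes (Tcf7l1, Tcf7l2, Bach1, Id1, Id2, Id4, Foxo3, Foxo4, Foxo6 and Bcl6b), 4 had BATF control peaks, 14 in all, led by Bach1 with 5 and Id2 with 4, and 6 had no BATF control peak. With RA there were 10 peaks, and 12 of the 14 control peaks had one within 5 kb. RARα named only Tcf7l2 among them, with 1 control peak. Of 8 cofactors of TCF1 and LEF1, 6 had BATF control peaks, 25 in all, led by Bcl9l with 11, and RARα named 2 in the control and 1 with RA.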
